A study of Mus musculus with 18 samples.

Results

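Intraepithelial T cells were found as a small population among sorted epithelial cells of the mouse ileum. A cell barcode counted as a T cell when at least 3 of 9 lymphocyte markers (Cd3e, Cd3g, Cd7, Ccl5, Gzma, Gzmb, Ptprc, Cd8a and Nkg7) had a UMI (a unique molecular identifier, 1 captured RNA molecule) and fewer than 3 of 4 tuft cell genes (Dclk1, Rgs13, Avil and Trpm5) did. Barcodes were read when they held 500 to 18000 UMIs, 200 to 4000 genes and under 5% mitochondrial UMIs. By this rule 103 of 51959 barcodes were T cells, 95 of 25693 in the 4 Lgr5+ libraries and 8 of 26266 in the 4 lineage-traced libraries. The cells were selected on the UMIs of these 13 genes, so all levels in them against other cells are a description and were not tested.

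The study asked how loss of Setdb1, an H3K9 methyltransferase, in Lgr5+ intestinal stem cells changes their differentiation. Single-cell RNA-seq libraries (10x Genomics 3′ assay) were made from GFP+ ileal cells of C57Bl6 mice aged 60 to 65 days, 5 days after 1 injection of 70 mg/kg tamoxifen. In the Lgr5+ experiment the controls were Lgr5-GFP-CreERT2 mice (Lgr5+WT), and the mutants, Lgr5-GFP-CreERT2/Setdb1lox/lox, are called Lgr5+Setdb1KO. In the lineage-traced experiment both genotypes also carried the nTnG reporter, which switches from tdTomato to GFP once Cre has acted (Lgr5-GFP-CreERT2/nTnG for WT and Lgr5-GFP-CreERT2/Setdb1lox/lox/nTnG for Setdb1KO). Each of the 4 groups had 2 libraries. All groups, the controls included, carried the Cre allele and received tamoxifen. Cre is driven by Lgr5, so a T cell is not a cell in which the floxed gene is meant to be deleted, and any difference in T cells concerns cells that share a tissue with the deleted ones. The labelled cell type of all libraries is stem cells.

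Intraepithelial lymphocytes are T cells that lie between the epithelial cells of the gut. Many bear the γδ receptor, others the αβ receptor, and most carry CD8 as an αα homodimer and keep granzymes and chemokines at hand. They are held in place by binding of CD103 (Itgae with Itgb7) to E-cadherin on epithelial cells, and they are kept by epithelial signals such as IL-15 and butyrophilin-like molecules.

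Total UMIs ranged from 50722926 to 81876035 per Lgr5+ library and from 16881518 to 43046925 per lineage-traced library. Setdb1 in the other cells was at 10.8 and 10.3 CPM (a gene's UMIs relative to the library total, scaled by TMM unless stated otherwise) in Lgr5+WT and 5.07 and 6.54 in Lgr5+Setdb1KO (log2 fold change -0.85 ± 0.15 SE, edgeR adjusted p = 0.0498). In the lineage-traced libraries it was at 7.13 and 5.34 CPM in WT and 7.95 and 7.20 in Setdb1KO (log2 0.23 ± 0.23, edgeR adjusted p = 0.615). Exon 3 is the deleted part, and 3′ counts do not read it, so neither value checks the deletion. Among the T cells Setdb1 had 1, 1, 0 and 1 UMIs in the 4 Lgr5+ libraries, too few to compare.

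The T cells stood apart from the other barcodes by their number of markers. Among the Lgr5+ barcodes with fewer than 3 of the tuft cell genes, 24749 had none of the 9 markers, 239 had 1, 6 had 2, 2 had 3 and 3 had 4, while 81 had 6 or more and 18 had all of them. Few barcodes therefore lay near the limit of 3. Among the lineage-traced barcodes with fewer than 3 of the tuft cell genes 3 had 2 markers, 3 of the 8 T cells had exactly 3, and none had 8 or 9.

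**Figure D1:**
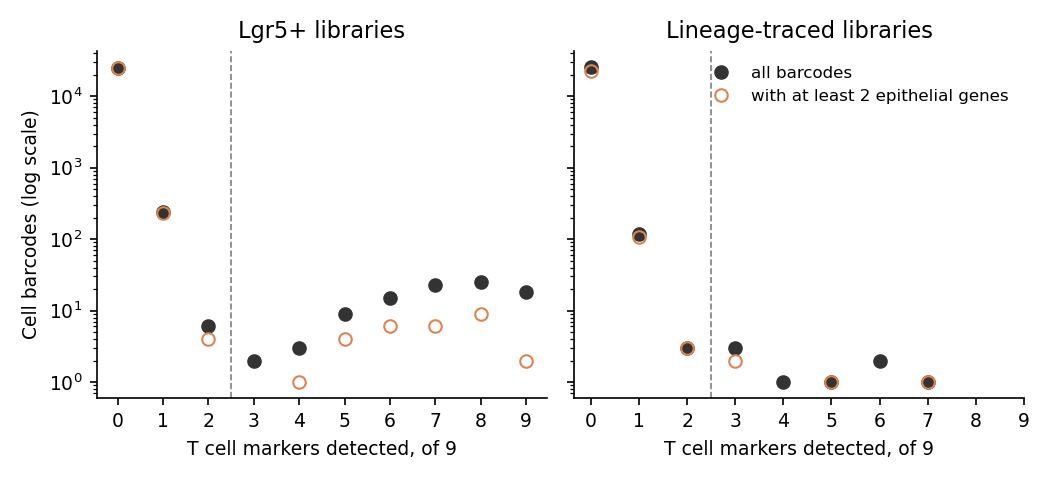
Number of cell barcodes (log scale) by how many of the 9 T cell markers had a UMI, in the Lgr5+ libraries (left) and the lineage-traced libraries (right); filled points count all barcodes with fewer than 3 of the 4 tuft cell genes, open points those of them with a UMI of at least 2 of 6 epithelial genes, and the dashed line marks the limit of the rule. The Lgr5+ libraries have a second peak at 8 markers with 25 barcodes, apart from the barcodes with none.

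Genes that the rule did not read gave the same label in the Lgr5+ libraries. Cd3d, a chain of the CD3 complex, had a UMI in 68 of 95 T cells and in 0.0156% of the 25598 other cells. A UMI of a receptor constant gene was in 90 of the 95 T cells. Among the 20 genes outside the rule that stood highest against the other cells were the receptor genes Trbc1, Trbc2, Trdc, Tcrg-C1, Tcrg-C2, Tcrg-C4 and Trgv2, the NK receptor gene Klrd1 and the GTPase genes Gimap4 and Gimap7. Trbc1, Tcrg-C2, Tcrg-C4 and Trgv2 had no UMI in any other cell, against 92, 70, 51 and 48 UMIs in the T cells.

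The lineage-traced T cells were less clearly T cells. Of the 8, 6 had a UMI of Cd3d, Cd3e or Cd3g, and 4 had a UMI of a receptor constant gene. Trdc, Tcrg-C2 and Tcrg-C4 had no UMI in them, Trbc2 had 6 and Trac 2. Their most abundant marker was Ccl5, a chemokine of effector T cells, with 368 UMIs. They are therefore given as counts, and all gene values below are from the 95 Lgr5+ T cells.

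Markers of other blood cells were at or near 0. In the 95 T cells Cd79a and Ms4a1 (B cells), Igkc, Jchain and Mzb1 (plasma cells), Lyz2, Csf1r, Itgam and Adgre1 (myeloid cells) and Cpa3, Mcpt1 and Mcpt2 (mast cells) had no UMI. Of the innate lymphoid list, Ncr1, Il1rl1, Il13 and Il23r had none, while Klrb1c had 2 UMIs. Cd79b had 10 UMIs in 10 cells and Igha 4 in 3. GFP had a UMI in 0 of 95 T cells, which allows a share of up to 3.16%, and in 0.234% of the other cells, so a GFP share like that of the other cells was not detectable in so few T cells.

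The share of T cells was lower in Lgr5+Setdb1KO than in Lgr5+WT, and the libraries of each genotype lay close together. Lgr5+WT replicates 1 and 2 held 28 T cells of 4880 barcodes and 35 of 6253, or 0.574% (exact binomial 95% interval 0.382% to 0.828%) and 0.560% (0.390% to 0.778%). Lgr5+Setdb1KO replicates 1 and 2 held 7 of 2944 and 25 of 11616, or 0.238% (0.0956% to 0.489%) and 0.215% (0.139% to 0.318%). Both Setdb1KO shares lay below both WT shares, and the intervals, which cover counting error only, overlapped for Setdb1KO replicate 1.

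The mean share was 0.567% ± 0.00993 (SD, n = 2) in Lgr5+WT and 0.226% ± 0.0159 (SD, n = 2) in Lgr5+Setdb1KO, a 2.50-fold lower share (log2 -1.32, exact two-sided permutation p = 0.333). With 2 libraries against 2, 0.333 is the smallest p this test can give, so the difference could not pass a threshold. The SDs rest on 2 libraries each and are narrower than the counting intervals above, so they are no measure of how large the difference is. It lay between log2 -1.25 and -1.61 under the 11 alternatives tried. The libraries of a genotype were less alike among barcodes with at least 1000 UMIs, where the shares were 0.546% and 0.326% in Lgr5+WT and 0.242% and 0.0613% in Lgr5+Setdb1KO (log2 -1.52, exact permutation p = 0.333), again with no overlap. The labels do not say how many mice went into a library. The p rests only on how the shares of the libraries can be divided between the genotypes, and does not measure their spread. Shares are of sorted barcodes, so fewer T cells and more of the other cells cannot be told apart.

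**Figure D2:**
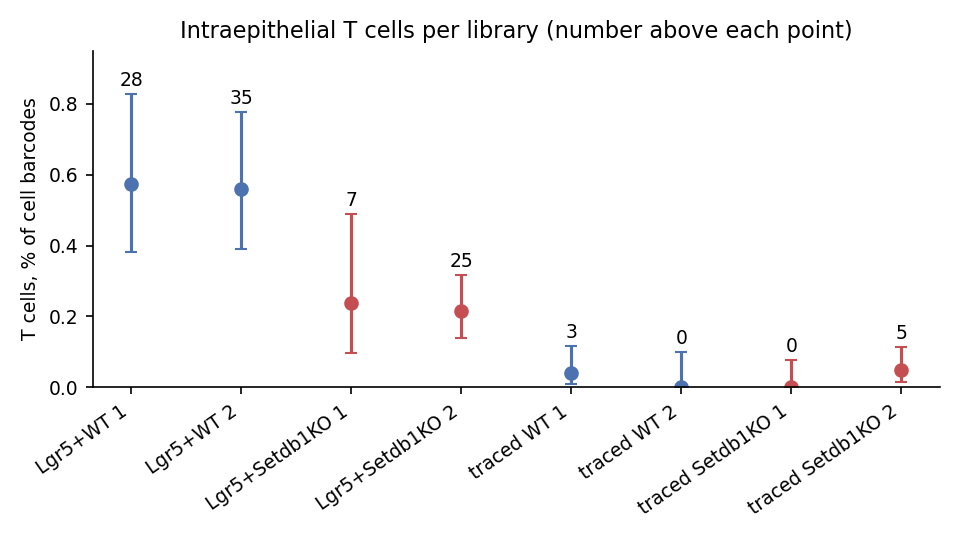
T cell barcodes as a percentage of all cell barcodes within the limits in each of the 8 libraries, with exact binomial 95% intervals and the number of T cells above each point (blue WT, red Setdb1KO). Both Lgr5+WT libraries lie at or above 0.560%, both Lgr5+Setdb1KO libraries at or below 0.238%, and the lineage-traced libraries at or below 0.0489%.

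T cells were rarer in the lineage-traced libraries. WT held 3 of 7589 barcodes (0.0395%) and 0 of 3696, and Setdb1KO held 0 of 4758 and 5 of 10223 (0.0489%). The 0 counts allow shares of up to 0.0812% and 0.0631%. The genotypes overlapped (log2 0.31, exact permutation p = 1), and without the T cells that held at least 2 epithelial genes the difference had the opposite sign (log2 -0.43, exact permutation p = 1).

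Over both experiments the mean difference, Setdb1KO minus WT, was -0.168 percentage points (exact permutation p = 0.278). The difference between the experiments in the effect of genotype was -0.345 percentage points (exact permutation p = 0.167). Percentage points stand in for log2 ratios here because 2 libraries held no T cell. The lineage-traced shares were at most 0.0489%, so on this scale both values are set mainly by the Lgr5+ experiment. The second value therefore cannot show whether the effect of genotype differed between the experiments.

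Between the experiments the shares did not overlap, at 0.215% to 0.574% in the Lgr5+ libraries and 0% to 0.0489% in the lineage-traced ones (exact permutation over 8 libraries, p = 0.0286). That is the smallest p this test can give, and the comparison was added after the shares were seen, so the p is no separate support. The nTnG reporter also differed between the experiments and cannot be told apart from them. The depth of the libraries differed in the same direction. Other cells held a median of 4645 to 9254 UMIs in the Lgr5+ libraries and 970.5 to 2087 in the lineage-traced ones. When Lgr5+ barcodes were thinned by the ratio of these medians, to a median of 1273.25 UMIs, 78 of the 95 T cells kept 3 markers, but only 12 kept 500 UMIs. The rule then gave shares of 0.0825% and 0.0487% in Lgr5+WT and 0.0310% and 0.0353% in Lgr5+Setdb1KO, which overlap with those of the lineage-traced libraries. Without the limit of 500 UMIs, the T cells that kept 3 markers after thinning were 0.492% and 0.496% of the Lgr5+WT barcodes. In Lgr5+Setdb1KO they were 0.170% and 0.155%. These values lay above the lineage-traced shares, which were counted with the limit, so the measures are unlike. Below the limit, among barcodes with 300 to 499 UMIs, at least 3 markers were found in 3 and 2 lineage-traced WT, 0 and 0 lineage-traced Setdb1KO, 1 and 1 Lgr5+WT and 0 and 2 Lgr5+Setdb1KO barcodes. Between 100 and 299 UMIs the lineage-traced libraries had none. The part of depth in the difference between the experiments was not tested further.

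T cells held less RNA than the sorted epithelial cells. Their median was 1496.5 and 1081 UMIs in Lgr5+WT and 1321 and 898 in Lgr5+Setdb1KO, against 7521.5, 6034, 9254 and 4645 UMIs in the other cells of the same libraries. In each library the T cells had the lower median. Their median mitochondrial share was 1.32% to 1.47%.

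Some T cell barcodes also held epithelial RNA. At least 2 of the 6 epithelial genes Epcam, Cdh1, Krt8, Krt18, Krt19 and Cldn7 had a UMI in 10, 6, 3 and 9 T cells of the 4 libraries, 28 of 95 in all, and in over 99% of the other cells. These 28 reached 17184 UMIs and held 62.5% of all UMIs of the T cells, while the remaining 67 had at most 2265 UMIs. In Lgr5+Setdb1KO replicate 1, 2 barcodes with over 2500 UMIs gave 81.6% of the UMIs of its 7 T cells. Whether such barcodes were a T cell with an epithelial cell in 1 droplet was not tested, and no doublet caller was run. Without the 28, the share was 3.04-fold lower in Lgr5+Setdb1KO (log2 -1.61, exact permutation p = 0.333).

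**Figure D3:**
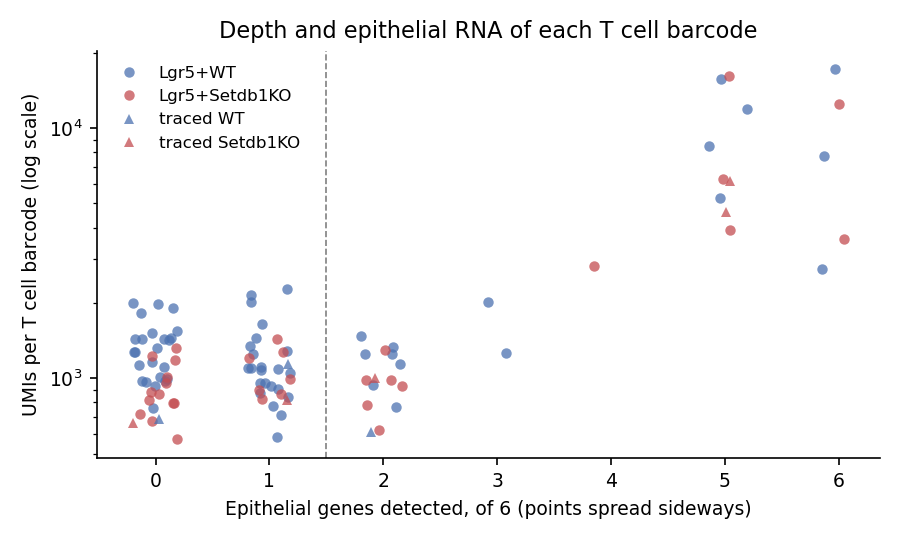
UMIs of each of the 103 T cell barcodes (log scale) against how many of 6 epithelial genes had a UMI; circles are Lgr5+ and triangles lineage-traced barcodes, blue WT and red Setdb1KO, and the dashed line separates barcodes with fewer than 2 from those with 2 or more. The Lgr5+ barcodes with fewer than 2 epithelial genes lie at or below 2265 UMIs, and the barcodes with 5 or 6 lie higher.

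Of the rule's own genes, Ccl5 and Cd3g were in nearly all T cells and Gzma and Gzmb in most. Ccl5, which draws other T cells, had 5601 UMIs in 93 of the 95 T cells, a median of 47 UMIs in those that had it. Gzma, a granule protease, had 4293 UMIs in 80 T cells with a median of 48.5. Gzmb and Cd3g had 478 UMIs in 73 T cells and 448 in 91. No single T cell held over 5% of the UMIs of any of these 4 genes.

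Ccl5 and Gzma were also found outside the T cells at a low level that followed the same groups. In droplets under 100 UMIs, which hold free RNA, Ccl5 was at 37.4 and 22.7 CPM in Lgr5+WT and 4.29 and 19.5 CPM in Lgr5+Setdb1KO, without TMM scaling. A Ccl5 UMI was in 0.577% and 0.579% of the other cells of Lgr5+WT and in 0.0681% and 0.242% of those of Lgr5+Setdb1KO, and these shares are read as background. Of all UMIs of the cell barcodes, 98.1% of Ccl5 and 97.5% of Gzma lay in the T cells.

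Receptor genes showed both kinds of T cell. Trdc, the constant gene of the δ chain, had a UMI in 13 of 28 and 13 of 35 T cells of Lgr5+WT and in 2 of 7 and 15 of 25 of Lgr5+Setdb1KO. Trac, that of the α chain, had one in 14 and 14 T cells of Lgr5+WT and in 2 and 4 of Lgr5+Setdb1KO. The 2 genes were about as frequent in 3 of the libraries, and in Lgr5+Setdb1KO replicate 2 Trdc was found in 60% (exact binomial interval 38.7% to 78.9%) and Trac in 16% (4.54% to 36.1%).

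Among T cells with a UMI of only 1 of these 2 genes, Trdc was the one found in 8 of 17, 6 of 13, 2 of 4 and 13 of 15 in the same order of libraries. Both had a UMI in 14 T cells and neither in 32, so the type of many cells was not readable at this depth. Thinned to 500 UMIs each, T cells with Trdc numbered 7, 5, 1 and 10 and with Trac 10, 8, 1 and 3. The higher count of Trdc in Lgr5+Setdb1KO replicate 2 was thus also there at equal depth, and replicate 1 of the same group, with 7 T cells, did not show it.

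Reading all constant genes (Trdc, Tcrg-C1, Tcrg-C2 and Tcrg-C4 against Trac, Trbc1 and Trbc2) left 60 of the 95 T cells with UMIs of both sets. T cells with γδ genes alone numbered 1, 5, 1 and 9, and those with αβ genes alone 6, 6, 1 and 1. Their γδ share was 14.3% and 45.5% in Lgr5+WT and 50% and 90% in Lgr5+Setdb1KO, and in the lineage-traced libraries it rested on 1 cell of WT and 3 of Setdb1KO. An average over both experiments would take its sign from those 4 cells and is not given.

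The 29 T cells with Trdc and no Trac differed in UMI counts from the 20 with Trac and no Trdc in some of their other receptor genes, pooled over libraries and given with no test. Tcrg-C1, a γ chain constant gene, had 38 UMIs in the first set and 5 in the second. Tcrg-C2 had 23 and 13 and Tcrg-C4 17 and 10, and in CPM the counting intervals of both overlapped between the sets. Trbc1, a β chain constant gene, had 13 and 32, and Trbc2 45 and 57, so β chain RNA was found in 18 of the 29 as well. Klrd1 (CD94) had 68 and 15 UMIs, and the signalling adaptor gene Tyrobp 63 and 20. Cd8b1 had none in the 29 and 7 in the 20, and Cd5 and Cd6, coreceptors of conventional T cells, had none in the 29 and 6 and 9 in the 20. Of the γ chain variable genes, Trgv2 had 48 UMIs in 33 of the 95 T cells, while Tcrg-V1, Tcrg-V4 and Tcrg-V7 had 3, 3 and 2. Variable segments lie away from the 3′ end that the assay reads, so these counts do not show which variable genes the cells use. Of the 29, 15 came from Lgr5+Setdb1KO libraries, and of the 20, 4 did.

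CD8 was present mainly as its α chain. Cd8a, 1 of the 9 markers, had 51, 53, 23 and 34 UMIs in the 4 libraries, while Cd8b1, the β chain, had 5, 5, 4 and 1. A UMI of Cd8a without Cd8b1 was found in 55 of 95 T cells and both in 6. Cd4 had 3 UMIs in 3 cells, and 28 T cells had a UMI of none of the 3 coreceptor genes. The α chain was the more abundant in every library.

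Genes of killing and of NK-type receptors were present at uneven levels. Of 11 cytotoxic granule genes 9 had a UMI, and only Gzmm and Serpinb9 had none. Gzma, Gzmb and Nkg7 on this list are markers of the rule, so their presence follows from the selection. Nkg7 had a UMI in 83 T cells, Srgn, the granule proteoglycan, in 69, and Ctsw, a protease of cytotoxic lymphocytes, in 56, whereas Prf1, the pore former perforin, had 6 UMIs in 6 cells and Fasl 11 in 11. Of 13 NK receptor and adaptor genes 8 had a UMI, led by Fcer1g with 203 UMIs, Klrd1 with 154, Tyrobp with 135 and Cd160 with 61, while Klrk1, Klrc1, Klrc2, Klra1 and Ncr1 had none.

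Chemokine RNA outweighed cytokine RNA. Of 12 genes, Tnf, Il2, Il17a, Il22 and Areg had no UMI, and Ifng had 4. Ccl4, a chemokine for macrophages and T cells, had 18, 21, 1 and 3 UMIs in the 4 libraries. Xcl1, which attracts cross-presenting dendritic cells, had 2, 6, 2 and 42, but 39 of its 52 UMIs lay in 1 T cell of Lgr5+Setdb1KO replicate 2.

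Residence genes were found and circulation genes were nearly absent. Of 14 gut homing and residence genes 13 had a UMI, among them Itgae (CD103) with 36, Gpr18 with 27, Itgb7 with 25, Cd69 with 19, and Ccr9, the receptor of the gut chemokine CCL25, with 16. Of the circulation genes, S1pr1 and Klf2 had no UMI, and Ccr7 and Lef1 had 1 each, in the same cell. The inhibitory receptor genes Pdcd1, Ctla4, Tigit, Havcr2 and Cd101 had none, and Lag3 had 21 UMIs in 14 cells.

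Signalling and transcription factor genes were sparse. All 10 proximal signalling genes had a UMI, from Lat with 43, an adaptor of the T cell receptor, to Lcp2 with 12. Runx3, a factor of CD8 T cells, had 24 UMIs, Ikzf2 34, Ets1 32 and Bcl11b 12, while Eomes, Zbtb16, Zfp683 and Sox13 had none and Tbx21 had 3. Il2rb and Il2rg, receptor chains for IL-15, had 13 and 15 UMIs, and Il7r had 3. Bcl2, a survival gene, had 41. Of 14 immediate early genes 10 had a UMI, led by Jund with 105 and Junb with 97, and of 11 interferon response genes 9 did, led by Ifi47 with 26.

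The cell cycle list (Mki67, Top2a, Birc5, Ccnb2, Stmn1 and Tyms) summed to 706 to 1790 CPM in the T cells of the 4 libraries and to 1350 to 1709 CPM in the other cells. In the 67 T cells with fewer than 2 epithelial genes the sum was 0 to 468 CPM. These sums were not scaled by TMM. Secreted epithelial products had UMIs in 81 of the 95 T cells, led by Zg16, a goblet cell lectin, with 1457 UMIs. Most of these lay in Lgr5+WT replicate 2, with 41, 1382, 6 and 28 in the 4 libraries. Of the 1457 Zg16 UMIs, 84 lay in the 67 T cells with fewer than 2 epithelial genes.

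**Figure D4:**
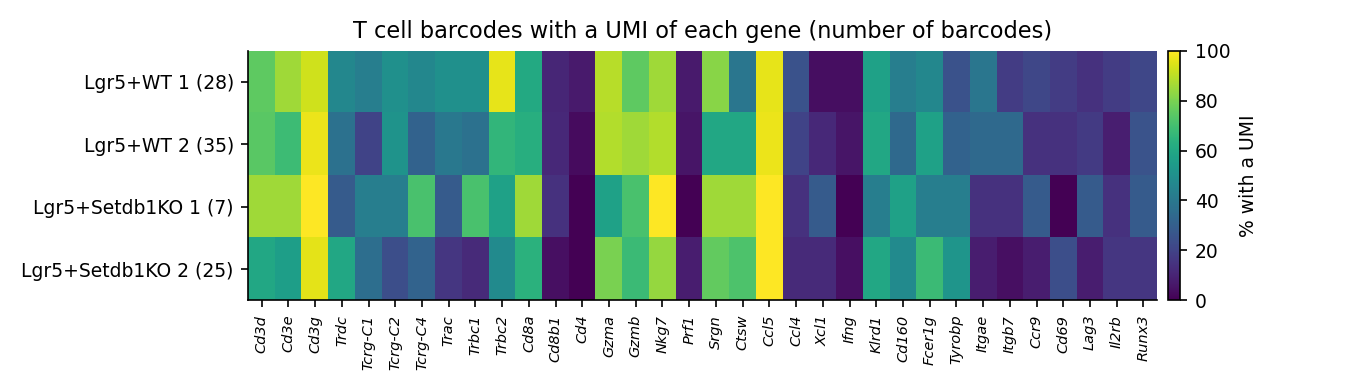
Share of the T cell barcodes of each Lgr5+ library (rows, with the number of barcodes) that had a UMI of each gene (columns; colour scale 0% to 100%), ordered as CD3 and receptor chains, coreceptors, granule genes, chemokines and cytokines, NK-type receptors, residence genes and others. Cd3g and Ccl5 are high in all 4 rows, Cd8a is above Cd8b1 in all 4, and Trdc is highest and Trac lowest in Lgr5+Setdb1KO replicate 2.

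Within T cells no gene passed the test between the genotypes. UMIs were summed over the T cells of each Lgr5+ library and compared with edgeR, and 0 of 654 genes (0%) were called in either direction at an adjusted p under 0.05, 27 had an unadjusted p under 0.05, and DESeq2 called 0, with 8 unadjusted. The lineage-traced libraries held too few T cells (0 to 5) to enter. The test had 4 libraries of 7 to 35 T cells each. In simulated counts of this size, 163 of 654 genes were changed by 2 on the log2 scale, with a common dispersion for all genes. The test recovered 69.9% of these. That share does not carry over to data with fewer changed genes or uneven dispersion. Differences of this size or larger could therefore be missed at this depth, as could smaller ones.

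The gene of the lists with the smallest p was Itgae, with 19 UMIs in 11 T cells and 14 in 12 of Lgr5+WT and 1 in 1 and 2 in 2 of Lgr5+Setdb1KO. The groups did not overlap in CPM (321 and 380 against 38.7 and 86.9), and the log2 fold change was -2.43 ± 0.60 (edgeR adjusted p = 0.921), which does not pass. Trac was at 389 and 516 CPM against 77.4 and 261 (log2 -1.42 ± 0.59, edgeR adjusted p = 0.921). Trdc was at 643 and 598 CPM against 464 and 1217 (log2 0.42 ± 0.50, edgeR adjusted p = 0.964), and its groups overlapped.

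Of the receptor complex genes 10 were tested, 8 with a negative and 2 with a positive log2 fold change (median -0.51, against 0.0084 over all 654). The 6 genes of the T cell list, all markers of the rule and so given as a description, were negative (median -0.50). Of the cytotoxic list 5 were tested, 4 of them negative. Cd3e and Cd3g of the receptor complex list and Gzma, Gzmb and Nkg7 of the cytotoxic list are markers of the rule too. No member of these lists passed. The 4 libraries differed in how many of their T cell barcodes also held epithelial RNA, as given above, and its part in these medians was not tested. Over the 6 T cell lists (T cell, receptor complex, coreceptor, cytotoxic granule, chemokine and NK receptor), 23 genes were tested, 16 of them negative (median -0.44). Without the 28 T cells that held at least 2 epithelial genes, 12 of 22 were negative (median -0.12). Without Lgr5+Setdb1KO replicate 1, 12 of 25 were negative (median 0.10), and without Lgr5+Setdb1KO replicate 2 all 24 were (median -1.46), so the sign of the median turned when replicate 1, with its 7 T cells, was left out.

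When the 28 T cells with epithelial genes were left out, 292 genes were tested and 4 were called, all higher in Lgr5+Setdb1KO, namely Defa21, Defa22, Defa24 and Gm14851. The first 3 are α-defensins, antimicrobial peptides of Paneth cells. Xcl1 was called higher when Lgr5+Setdb1KO replicate 1 was left out (log2 4.33, edgeR adjusted p = 0.0296), where 1 cell held most of its UMIs. Without Lgr5+Setdb1KO replicate 2, Ccl5, Gzma, Gzmb and Trbc2 were among 9 genes called. With no filter on low counts, 12 of 10178 genes were called on all 4 libraries. Among them Xcl1 was higher (log2 3.09, edgeR adjusted p = 0.000167) and Zg16 lower (log2 -4.98, edgeR adjusted p = 6.88e-54). Zg16 had 41, 1382, 6 and 28 UMIs and did not pass with the filter (edgeR adjusted p = 0.921), so these calls are not read as differences. Ccl5 (log2 -1.26) and Gzma (log2 -1.10) were lower in the same fit. Ccl5, Gzma and Gzmb are markers of the rule, so their values within T cells are a description.

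Some T cell genes were lower in Lgr5+Setdb1KO when all cell barcodes of a library were summed. This comparison was added after the shares were seen and largely restates them. Of the 10 genes called, 6 (Ccl5, Cd3g, Cd7, Gzma, Gzmb and Nkg7) are markers of the rule, and 95.7% to 99.6% of their UMIs lay in the T cells. Ccl4, Klrd1, Srgn and Trac are not markers of the rule. Of 31 genes of the 6 T cell lists that could be tested, 10 were lower and 0 higher (0 lower with no filter on low counts, and 1, Gzma, with the replicate block), while of all 13673 genes 0.673% were called lower, 1.03% higher and 1.7% in either direction (edgeR, adjusted p under 0.05). The median log2 fold change of the 31 was -1.45, against -0.0056 over all genes.

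The values of the rule's own markers follow the number of T cells found and are no separate support for it. Ccl5 had 2415 and 2113 UMIs in Lgr5+WT and 196 and 985 in Lgr5+Setdb1KO, with no overlap between the groups in CPM (59.9 and 52.8 against 6.85 and 16.8; log2 -2.22 ± 0.34, edgeR adjusted p = 0.0300). Gzma had 1755 and 1642 UMIs against 187 and 817 (log2 -2.01 ± 0.29, edgeR adjusted p = 0.0280). Cd3g had 187 and 156 UMIs against 32 and 88 (log2 -1.67 ± 0.22, edgeR adjusted p = 0.0209). In each of the 3 genes Lgr5+Setdb1KO replicate 1 was the lowest library.

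Trac had 27 and 23 UMIs in Lgr5+WT and 3 and 6 in Lgr5+Setdb1KO (log2 -2.56 ± 0.43, edgeR adjusted p = 0.0397), and Trdc had 39 and 23 against 12 and 28 (log2 -0.76 ± 0.38, edgeR adjusted p = 0.353). Whether the 2 receptor genes differed from each other in their change was not tested. The other genes called were Cd7, Gzmb, Nkg7, Srgn, Ccl4 and Klrd1, from log2 -1.45 for Cd7 to -3.11 for Ccl4. All 10 receptor complex genes tested were negative (median -1.60), with 2 of them called. Of the 31 genes Cd244a, an NK receptor gene, alone was positive, with 13, 20, 19 and 228 UMIs (log2 2.55 ± 0.76, edgeR adjusted p = 0.146), and 266 of its UMIs lay outside the T cells against 14 within them. It was called higher without Lgr5+Setdb1KO replicate 1. Cd8a (log2 -1.01 ± 0.28, edgeR adjusted p = 0.133) and Ptprc (log2 -0.85 ± 0.26, edgeR adjusted p = 0.159) did not pass.

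**Figure D5:**
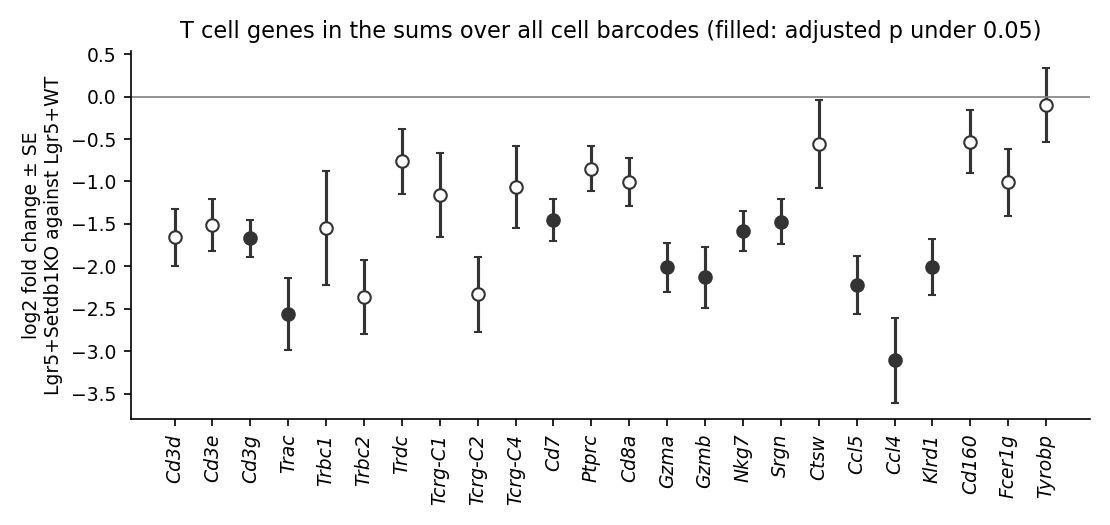
log2 fold change (± SE, edgeR) of 24 T cell genes between Lgr5+Setdb1KO and Lgr5+WT, 2 libraries each, in UMIs summed over all cell barcodes; filled points passed an adjusted p of 0.05. The 24 plotted of the 31 genes tested lie below 0, from -0.09 for Tyrobp to -3.11 for Ccl4. Cd244a, not plotted, lay at 2.55.

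Both the calls and the size of the difference in single genes moved with single libraries. Ccl5 was at log2 -1.75 without Lgr5+Setdb1KO replicate 1 and at -3.04 without Lgr5+Setdb1KO replicate 2, Gzma at -1.61 and -2.70, and Gzmb at -1.73 and -3.08. Without Lgr5+WT replicate 1 or 2, 0 and 1 of the T cell list genes were lower, and without Lgr5+Setdb1KO replicate 1 or 2, 2 and 9. The median log2 fold change of the lists was then -1.16, -1.45, -1.24 and -1.51, with 29, 29, 30 and 30 genes negative. In the other cells alone, 12 of the genes could be tested and 0 passed in either direction (median -0.43). Without Lgr5+Setdb1KO replicate 2, Ccl5 and Gzma were called lower there. Of B cell and plasma cell genes 3 were tested in the sums over all cells and 1, Cd79a, was called lower in Lgr5+Setdb1KO. Their part in the T cell values was not tested. Cd79a had 16 and 20 UMIs in Lgr5+WT and 1 and 1 in Lgr5+Setdb1KO (log2 -4.12 ± 0.61, edgeR adjusted p = 0.0296), and Igkc had 67, 4099, 0 and 7 UMIs (edgeR adjusted p = 0.105). Cd79b had 125 and 151 UMIs against 63 and 182 (log2 -0.35 ± 0.22, edgeR adjusted p = 0.466).

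In the lineage-traced libraries few of these genes had enough UMIs to be tested. Of the T cell list 3 could be tested, of the cytotoxic granule list 2 and of the coreceptor list 1, and 0 passed. Of the chemokine and cytokine list 3 were tested and 1 was called lower, Areg, a growth factor gene (log2 -2.61 ± 0.30, edgeR adjusted p = 8.39e-05). All Areg UMIs (157, 76, 12 and 63) lay in the other cells and none in T cells. No receptor complex or NK receptor gene had enough UMIs to be tested. Of all 12201 genes 1.57% were called higher, 7.23% lower and 8.79% in either direction. Ccl5 had 88 and 61 UMIs in WT and 0 and 387 in Setdb1KO (log2 0.05 ± 0.82, edgeR adjusted p = 0.982), and the 8 T cells held 368 of these. Gzma had 9 and 7 UMIs in WT and 0 and 23 in Setdb1KO (log2 -0.46 ± 0.77, edgeR adjusted p = 0.782). For Ccl5 the 2 Setdb1KO libraries were the lowest and the highest of the 4.

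Epithelial genes that speak to intraepithelial T cells were examined in the other cells. Of 26 such genes tested in the Lgr5+ experiment, 0 were higher and 2 lower in Setdb1KO, while of all 13618 genes 0.852% were called higher, 0.492% lower and 1.34% in either direction. Cxcl10, a chemokine for CXCR3-bearing T cells, had 49 and 32 UMIs in Lgr5+WT and 3 and 9 in Lgr5+Setdb1KO (log2 -2.87 ± 0.44, edgeR adjusted p = 0.0327). H2-D1, an MHC class I heavy chain, had 16838 and 15637 UMIs against 7756 and 15902 (log2 -0.58 ± 0.09, edgeR adjusted p = 0.0320). Neither was called when Lgr5+WT replicate 1, Lgr5+WT replicate 2 or Lgr5+Setdb1KO replicate 1 was left out, nor was H2-D1 without Lgr5+Setdb1KO replicate 2. Neither passed with no filter on low counts, and Cxcl10 did not with the replicate block. Their log2 fold changes lay between -3.23 and -2.55 for Cxcl10 and between -0.63 and -0.54 for H2-D1 under the 8 alternatives.

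The other ligands did not pass in edgeR. DESeq2 called 5 ligands lower, namely B2m, Ccl28, Cxcl10, H2-D1 and H2-K1, and Ulbp1 higher, and edgeR called B2m and Ccl28 lower without Lgr5+Setdb1KO replicate 2. In edgeR on all 4 libraries B2m was at log2 -0.47 ± 0.09, H2-K1 at -0.49 ± 0.10, Ccl28 at -0.65 ± 0.17 and Ulbp1 at 1.78 ± 0.43. Il15 was at log2 -0.07 ± 0.22 and Il18 at 0.38 ± 0.16. Btnl1 was at log2 0.29 ± 0.10, Btnl6 at -0.44 ± 0.21, Ccl25, the ligand of CCR9, at 0.27 ± 0.09, and Cdh1, E-cadherin, at -0.20 ± 0.09. The median of the 26 was -0.25, against -0.0052 over all genes. Of 11 interferon response genes all were negative (median -0.66) and 1, Irf1, was called lower. Irf1 was not called with no filter on low counts, with the replicate block, or without Lgr5+WT replicate 1, Lgr5+WT replicate 2 or Lgr5+Setdb1KO replicate 1. DESeq2 called 4 lower (Bst2, Igtp, Irf1 and Isg15), and edgeR without Lgr5+Setdb1KO replicate 2 called 3 (Bst2, Ifit1 and Irf1). Of 9 secreted epithelial products tested in the Lgr5+ cells, 6 were positive and 3 negative (median 0.26). Olfm4 (log2 -0.92) and Reg3b (log2 -1.17) were called lower and 0 higher. Among the positive ones, Apoa1 was at log2 1.09 ± 0.30 and Lyz1 at 0.78 ± 0.46. The 4 tuft cell genes were positive (median 0.67) with 0 called. The part of these products and tuft cell genes in the ligand and interferon response values was not tested. Of the interferon response list 9 genes were tested in the lineage-traced cells, 5 positive and 4 negative (median 0.035). Bst2 was called higher there and Ifit1 lower, neither of them without WT replicate 1 or without Setdb1KO replicate 2.

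In the lineage-traced experiment 1 of 23 ligand genes tested was higher and 9 were lower in Setdb1KO, where 1.59% of all 12199 genes were called higher, 7.23% lower and 8.82% in either direction. The median of the list was -0.76, against 0.011 over all genes. Btnl1, which with Btnl6 engages Vγ7 T cells of the mouse gut, had 345 and 121 UMIs in WT and 43 and 123 in Setdb1KO (log2 -2.34 ± 0.23, edgeR adjusted p = 1.55e-05). The others lower were Btnl2, Cxcl16, H2-K1, H2-Q1, H2-Q2, H2-T3, Il15 and Il18, and Ulbp1, an NKG2D ligand, was higher, with 3 and 3 UMIs in WT and 20 and 28 in Setdb1KO (log2 2.17 ± 0.62, edgeR adjusted p = 0.0455). Ulbp1 was not called with DESeq2, without WT replicate 1 or without Setdb1KO replicate 1. Il15 was not called with DESeq2 or without WT replicate 2, H2-K1 without WT replicate 1 or 2, Cxcl16 without WT replicate 1 and H2-T3 without WT replicate 2. Btnl1, Btnl2, H2-Q1, H2-Q2 and Il18 were called lower under all 8 alternatives. With the replicate block Cdh1, H2-D1 and Pvr were called lower as well, 12 ligands in all, beside 1632 of all 12199 genes. With no filter on low counts Cd274 and Pvr were added, 11 ligands in all, beside 1089 of 19006 genes. Markers of epithelial cell types moved in the same lineage-traced cells. Of 9 secreted epithelial products 6 were lower and 0 higher (median -1.70), among them Apoa1, an enterocyte apolipoprotein (log2 -5.08 ± 0.36, edgeR adjusted p = 1.06e-06), and all 4 tuft cell genes were higher (median 1.10). Their part in the ligand values was not tested. The other cells of these libraries held 18977113, 7974435, 8951175 and 26711097 UMIs, and as T cells numbered 3, 0, 0 and 5 there, no T cell value can be set beside these genes.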

How the data were processed

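The deposited files hold UMI counts per gene and barcode for all barcodes, made by the authors with Cell Ranger (6.1.1 in the methods, 4 in the matrix headers) on mm10 with GFP added. Normalization was not part of the deposited counts. The T cells and gene lists were chosen with earlier results of these data known. Groups came from the labels, and the libraries are independent biological replicates by the methods. No doublet caller was run and free RNA was not removed. Barcodes shared by libraries numbered 3 to 29 per pair, none of them T cells.

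Shares were compared with two-sided exact permutation tests over libraries, in percentage points where a library held 0 T cells. UMIs were summed per library, filtered with filterByExpr, scaled by TMM and compared with edgeR 4.0.16 (quasi-likelihood test, Benjamini-Hochberg adjustment) in R 4.3.3, with DESeq2 1.42.0 as an alternative. The planned fit over 8 libraries and the test of γδ against αβ cells were not run, as too few T cells remained, and 4 libraries were fitted instead. Tests were checked on simulated counts. Some genes of the lists are not reported here. For a share of 0, the upper limit given is 3 cells of the total. Intervals of shares are exact Clopper-Pearson intervals. The counting intervals in CPM are Poisson intervals on UMIs pooled over cells and libraries, without TMM scaling, and cover counting error only. Named genes were those of the lists, up to 5 genes per direction and test, the 20 leading genes outside the rule, and Setdb1, Lgr5 and GFP, beside genes named after their values were seen (the defensins and Gm14851). Alternatives were other scaling, no filter, DESeq2, a replicate block, other limits for barcodes and markers, T cells without epithelial genes, and leaving out each library. The sums over all barcodes and the comparison of experiments were added after the data were seen. Permutation tests and intervals were computed in Python 3.11.15 (scipy 1.17.1). Total UMIs per library ranged from 16881518 to 81876035.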

Additional observations from a re-analysis of the deposited data

How the results depend on the processing

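The lower share of T cells in Lgr5+Setdb1KO kept its direction under 11 of 11 alternatives (log2 -1.61 to -1.25), and no p could fall below 0.333. In the lineage-traced experiment the share turned to log2 -0.43 without T cells that held 2 epithelial genes and ranged from -0.69 (without WT replicate 2) to 1.31 (without Setdb1KO replicate 1) with single libraries left out, while leaving out WT replicate 1 or Setdb1KO replicate 2 gave no value. It was 1.89 when a UMI of Cd3e, Cd3g or Cd7 was required and 1.57 with at least 4 markers, each with 1 WT cell. Genes called within T cells (0) became 12 with no filter on low counts, 4 without T cells that held 2 epithelial genes, and 2 to 9 without single libraries. Genes called in the other Lgr5+ cells (183) became 31 with no filter, 502 with DESeq2 and 17 to 550 without single libraries. For the other lineage-traced cells (1076) the range without single libraries was 596 to 2144. For all Lgr5+ cells (233) the counts were 43 with no filter, 506 with DESeq2 and 61 to 615 without single libraries. T cell list genes lower in all Lgr5+ cells (10) numbered 0 with no filter, 0 without the T cells, and 0 to 9 without single libraries. The cause of these changes was not tested. Of 80 combinations of those 10 genes with 8 alternatives 29 kept the call, 51 lost it and 0 reversed.

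With the replicate block, 114 genes were called in the other Lgr5+ cells, 2574 in the other lineage-traced cells, 105 in all Lgr5+ cells and 1 T cell list gene (Gzma) in all Lgr5+ cells, and the share in the Lgr5+ experiment stayed at log2 -1.32 (exact permutation p = 0.5). Same-numbered libraries deviated from their group means with correlations of 0.348 within T cells, -0.00537 in other Lgr5+ cells and 0.308 in other lineage-traced cells, and 2 pairs do not show that the numbers pair the samples. For the lineage-traced share the block gave no ratio because 2 libraries held no T cell. The number of T cells (7 in Lgr5+Setdb1KO replicate 1) and their depth limit what could be found within them.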
